A study of Mus musculus with 6 samples.

Results

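The 10 genes described here, Atf4, Atf3, Ddit3, Trib3, Asns, Chac1, Vldlr, Fgf21, Gdf15 and Sesn2, belong to the ATF4 branch of the integrated stress response. They were taken by symbol, with earlier results of these data known, from a table of 22274 genes measured in mouse liver. The symbols matched 11 rows, because Ddit3 stands there under 2 identifiers, and 1 of those (ENSMUSG00000116429) had no count in any library. The remaining 10 rows all passed the filter on low counts. Livers of C57 mice that had been infected with Ad-Dyrk1b, an adenovirus overexpressing mouse Dyrk1b, were compared with livers of C57 mice infected with the control adenovirus Ad-EGFP. Each group had 3 libraries, and every liver had received a virus, so no uninfected liver is among the samples. The sources used here do not state age, sex, dose, route or time after infection, nor whether livers were pooled. Where a gene has 3 values for a group, they are those of replicates 1, 2 and 3 in that order. The series is about liver Dyrk1b, a protein kinase, and the control of blood glucose.

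In the integrated stress response, kinases that sense misfolded protein, amino acid shortage, viral RNA or haem shortage phosphorylate the translation factor eIF2alpha. General translation then slows while translation of the Atf4 mRNA increases, so the ATF4 protein can change without a change in its mRNA. ATF4 activates genes of amino acid supply and, with its partner CHOP (the product of Ddit3), genes of stress adaptation and cell death. In liver the pathway is also known for inducing the secreted hormones FGF21 and GDF15 and the lipoprotein receptor gene Vldlr. Only RNA was measured in these libraries.

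Vldlr and Trib3 were higher and Chac1 and Sesn2 were lower in Ad-Dyrk1b livers, so the called genes of the pathway moved in both directions. Atf4 itself was not called, and neither were Atf3, Ddit3, Asns, Fgf21 and Gdf15. These 4 calls among 10 genes (edgeR quasi-likelihood test, adjusted p under 0.05) stand beside a background of 12.2% of 13201 tested genes. By direction the background was 7.36% higher and 4.81% lower. Of the 1607 genes called by edgeR on counts, 60.5% were higher. On FPKM (fragments per kilobase of gene and sequencing depth, here tested with limma-trend) 44.9% of the called genes were higher. The median log2 fold change of the 10 genes was 0.38, and that of all tested genes was -0.0050.

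**Figure D1:**
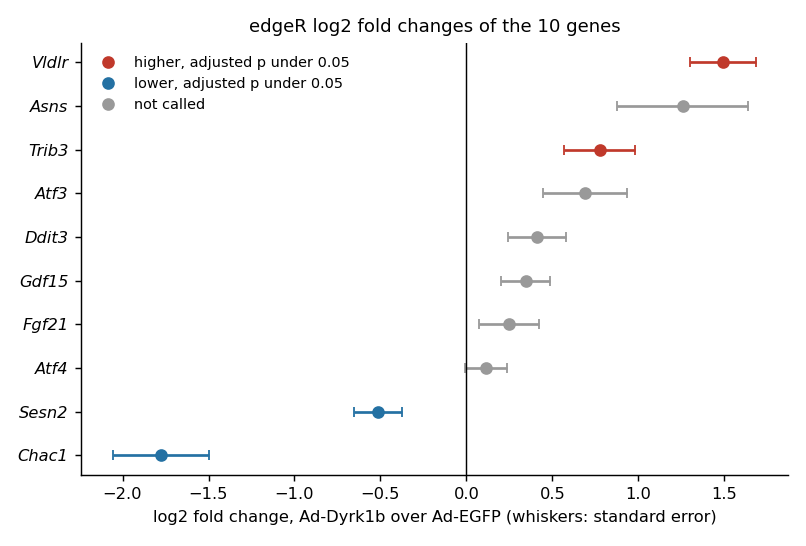
Log2 fold change of each of the 10 genes, Ad-Dyrk1b over Ad-EGFP, from edgeR (x axis), with whiskers of 1 standard error and colours for the call at an adjusted p under 0.05. Vldlr at 1.49 and Chac1 at -1.77 stand at the ends, and Atf4 at 0.11 lies next to 0.

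ATF4 binds DNA together with a C/EBP-family partner at a composite site, the C/EBP-ATF response element. Its core, TGATGNAA, was searched on both strands in the RefSeq promoter windows (GRCm38.p6, the same assembly as mm10) that reach from 250 bases before to 50 bases after each annotated start. All 10 genes had a window, and 6 of them held the core, namely Atf3, Trib3, Asns, Chac1, Vldlr and Fgf21. Among all 27025 genes with a window, 4.51% held it, and of the 32851 windows 3.97% did. Of the 10496 tested genes with a window, 2.81% held it. The sites are shown because ATF4 is known to bind this element, and because both Vldlr, which rose, and Chac1, which fell, have it. Each is printed on the strand of its gene, 5′ to 3′, with the core in capitals and 11 bases on either side:
Atf3: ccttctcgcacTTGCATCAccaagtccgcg
Trib3: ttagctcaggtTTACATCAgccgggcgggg
Asns: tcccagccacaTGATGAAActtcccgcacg
Chac1: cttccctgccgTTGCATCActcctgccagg
Vldlr: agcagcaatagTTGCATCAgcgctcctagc
Fgf21: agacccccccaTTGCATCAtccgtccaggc

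The core TTGCATCA, which is the same element read on the other strand, was identical in Atf3, Chac1, Vldlr and Fgf21. Of those 4 genes Vldlr was called higher and Chac1 lower, and Atf3 and Fgf21 were not called. The coordinates that follow are those of each printed stretch, and the distances and annotations are those of its core. The Atf3 stretch (chr1:191183425-191183454, minus strand) has its core 110 to 103 bases before the RefSeq start, inside an intron of the longer gene annotated by GENCODE release M21. The Trib3 stretch (chr2:152344028-152344057, minus strand) has its core 15 to 22 bases after the RefSeq start, outside the gene as GENCODE draws it. The Asns stretch (chr6:7693214-7693243, minus strand) has its core 23 to 16 bases before the start, in an untranslated exon of a GENCODE transcript. The Chac1 stretch (chr2:119351038-119351067, plus strand) has its core 193 to 186 bases before the start. The Vldlr stretch (chr19:27216809-27216838, plus strand) has its core 200 to 193 bases before the second of 2 RefSeq starts, within an exon annotated by GENCODE. The Fgf21 stretch (chr7:45615611-45615640, minus strand) has its core 139 to 132 bases before the start. The cAMP response element TGACGTCA, searched the same way, was in 1.79% of all windows and matched in none of the windows of the 10 genes. A match describes letters in a window and not binding.

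Of the tested genes with a window, the C/EBP-ATF core was in 4.26% of 752 called higher and 2.70% of 518 called lower. It was in 2.70% of 9226 not called. Of 12 aminoacyl-tRNA synthetase genes, known ATF4 targets that charge tRNAs with amino acids, 8 had a window found by symbol. The core was in 5 of these 8 genes (Aars, Gars, Iars, Tars and Yars). In the other lists of ATF4 targets the counts are also of genes with a window. The core was in 3 of 12 amino acid synthesis genes (Pycr1, Got1 and Pck2) and 2 of 7 amino acid transporters (Slc7a11 and Slc1a4). It was in 1 of 12 other stress effectors (Herpud1). No test was made on these shares.

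The check of the virus came first. Dyrk1b stood at 62.2, 101 and 96.5 FPKM in the Ad-Dyrk1b livers and at 3.81, 4.97 and 4.16 FPKM in the Ad-EGFP livers. All 6 libraries matched their labels in this respect. Counts do not separate viral from endogenous Dyrk1b transcripts. Library depth lay between 17326516 and 20024888 counts, and hepatocyte markers such as Alb and Ttr were present in all 6 libraries. The summed hepatocyte markers took 65290 to 81814 CPM (counts scaled to library size) in Ad-Dyrk1b and 80137 to 83898 CPM in Ad-EGFP libraries. Alb, at 982880 to 1231646 counts per library, made up most of each sum. Sums of markers were scaled to total counts, whereas CPM of single genes used the library sizes after TMM scaling, so the 2 are not on the same scale.

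By level, Atf4 was by far the most abundant of the 10 transcripts in control livers, at a mean of 93.3 FPKM. Gdf15 followed at 19.9 FPKM and Ddit3 at 11.4 FPKM, and each of these was apart from the one above in all libraries. From Ddit3 down through Sesn2, Fgf21, Atf3, Chac1 and Trib3 (4.50 FPKM), the ranges of neighbours overlapped. Asns (1.69 FPKM) and Vldlr (1.43 FPKM) were the lowest and overlapped each other. In Ad-Dyrk1b livers the first 3 places were the same, while Chac1 went from rank 7 to rank 10, below and apart from Vldlr.

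**Figure D2:**
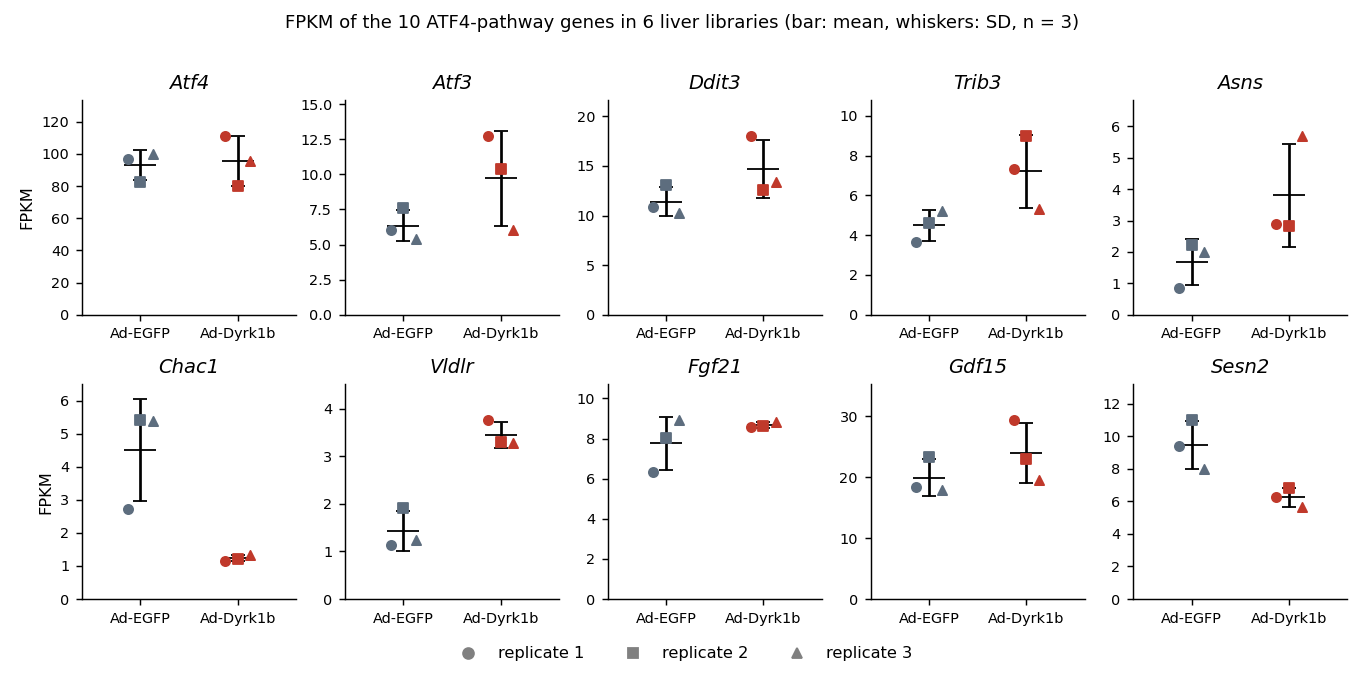
FPKM of the 10 genes in each library (y axis, from 0, a scale per gene), with Ad-EGFP in blue-grey and Ad-Dyrk1b in red, a symbol per replicate, and the mean ± SD over 3 libraries in black. Groups are apart for Vldlr, Asns, Trib3, Chac1 and Sesn2 and overlap for the other 5 genes.

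Among the transcription factors, Atf4 (ENSMUSG00000042406, chromosome 15, 80255184 to 80257541, plus strand, mm10), the activator that gives the pathway its name, was not called. It stood at 97.1, 82.7 and 100.1 FPKM in the Ad-EGFP livers and at 111, 80.01 and 95.9 FPKM in the Ad-Dyrk1b livers. On FPKM the highest and the lowest library were both of the Ad-Dyrk1b group. On CPM, the scale closest to the test, the lowest library was Ad-EGFP replicate 2 (137 CPM). The group means were 93.3 ± 9.30 and 95.7 ± 15.6 FPKM (SD, n = 3 each), and the log2 fold change was 0.11 ± 0.12 (standard error; edgeR adjusted p = 0.585). With 2496 to 3658 counts per library, Atf4 is the most deeply counted of the 10 genes.

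Atf3 (chromosome 1, 191170296 to 191218039), a stress-inducible bZIP factor known mainly as a repressor, was high in part of the Ad-Dyrk1b group. Its levels were 12.8, 10.4 and 6.02 FPKM in the Ad-Dyrk1b livers, against 6.04, 7.60 and 5.41 FPKM in the Ad-EGFP livers. Ad-Dyrk1b replicate 3 thus lay within the control range, and the groups overlapped. The log2 fold change was 0.69 ± 0.24 (edgeR adjusted p = 0.0975). Without Ad-Dyrk1b replicate 3 it was 0.94 and passed (edgeR adjusted p = 0.00467), and without any other library the adjusted p was between 0.117 and 0.253. DESeq2 called Atf3 higher (DESeq2 adjusted p = 0.0265).

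Ddit3 (ENSMUSG00000025408, chromosome 10, 127290774 to 127296288), which encodes CHOP, stood at 18.04, 12.6 and 13.4 FPKM in the Ad-Dyrk1b livers. In the Ad-EGFP livers it stood at 10.9, 13.1 and 10.3 FPKM. Ad-Dyrk1b replicate 1 was the highest library, and Ad-EGFP replicate 2 lay above Ad-Dyrk1b replicate 2 on this scale. The log2 fold change of 0.41 ± 0.17 did not pass (edgeR adjusted p = 0.129). Its exons share 68 bases with Mars1 on the opposite strand, and no strand setting is stated, so reads there cannot be assigned. Mars1, a tRNA synthetase gene, differed by -0.26 ± 0.10 on the log2 scale without a call (edgeR adjusted p = 0.104).

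Trib3 (chromosome 2, 152337422 to 152344032), a pseudokinase gene induced by ATF4 and CHOP whose product is known to inhibit both ATF4 and AKT, was higher in Ad-Dyrk1b livers. It stood at 7.34, 9.0 and 5.33 FPKM in the Ad-Dyrk1b livers and at 3.66, 4.63 and 5.21 FPKM in the Ad-EGFP livers. The groups did not overlap, but Ad-Dyrk1b replicate 3 and Ad-EGFP replicate 3 nearly met. Means were 7.22 ± 1.84 and 4.50 ± 0.783 FPKM (SD, n = 3 each). In the edgeR fit, which uses counts scaled to library size and not FPKM, the rise was 1.71-fold, or 0.77 ± 0.21 on the log2 scale (adjusted p = 0.0299). Leaving out replicate 1 or 2 of the Ad-Dyrk1b livers ended the call (edgeR adjusted p = 0.0663 and 0.123), as did leaving out replicate 1 or 2 of the controls (edgeR adjusted p = 0.0997 and 0.0762). It was also lost with limma-trend on FPKM (adjusted p = 0.0772).

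Sesn2 (chromosome 4, 132492032 to 132510501) encodes sestrin 2, a leucine sensor that restrains mTORC1 and is known as a target of both ATF4 and p53. It was lower in Ad-Dyrk1b livers, at 6.27, 6.81 and 5.66 FPKM, than in Ad-EGFP livers, at 9.43, 11 and 8.01 FPKM. All 3 Ad-Dyrk1b libraries lay below all 3 controls. In the edgeR fit on scaled counts the fall was 30.0%, or -0.51 ± 0.14 on the log2 scale (adjusted p = 0.0306). Leaving out replicate 1 or 3 of the Ad-Dyrk1b livers ended the call (edgeR adjusted p = 0.0900 and 0.0935), as did leaving out replicate 1 or 2 of the controls (edgeR adjusted p = 0.0823 and 0.0992). Of the other sestrin genes, Sesn3 fell by 0.58 ± 0.13 (edgeR adjusted p = 0.0122, at most 0.0444 without any 1 library, but called under 5 of 8 other settings), and Sesn1 differed by 0.39 ± 0.17 on the log2 scale without a call (edgeR adjusted p = 0.146).

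Chac1 (chromosome 2, 119351229 to 119354381), which encodes a glutathione-degrading gamma-glutamylcyclotransferase and is among the genes most closely tied to ATF4 and CHOP, fell the most of the 10 genes. Its levels were 1.15, 1.22 and 1.33 FPKM in the Ad-Dyrk1b livers, and 2.72, 5.41 and 5.39 FPKM in the Ad-EGFP livers. The Ad-Dyrk1b libraries were tightly grouped at 36 to 40 counts each, while among controls replicate 1, at 80 counts, was well below the others at 155 and 153 counts. The means of 1.23 ± 0.0907 and 4.51 ± 1.55 FPKM (SD, n = 3 each) were well apart. In the edgeR fit on scaled counts the fall was 70.8%, a log2 fold change of -1.77 ± 0.28 (adjusted p = 0.00166), and the call held without any 1 library (edgeR adjusted p = 0.000218 to 0.0122) and under all 8 other settings. This log2 fold change stood at percentile 0.197 of all tested genes, and that of Vldlr at percentile 98.5.

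Asns (chromosome 6, 7675169 to 7693254) encodes asparagine synthetase, a standard reporter of the amino acid response. It stood at 2.90, 2.82 and 5.70 FPKM in the Ad-Dyrk1b livers and at 0.86, 2.23 and 1.99 FPKM in the Ad-EGFP livers. The groups did not overlap. Ad-Dyrk1b replicate 3, at 204 counts, and Ad-EGFP replicate 1, at 31 counts, both stood away from the rest of their groups. The log2 fold change of 1.26 ± 0.38 did not pass (edgeR adjusted p = 0.0618, and 0.0607 to 0.136 without any 1 library). DESeq2 called it higher (DESeq2 adjusted p = 0.00352). The third replicate of Ad-Dyrk1b was therefore the highest library for Asns and the lowest of its group for Atf3, Trib3 and Gdf15.

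Vldlr (chromosome 19, 27216484 to 27254231), the very low density lipoprotein receptor gene that takes up triglyceride-rich particles, rose the most of the 10 genes. It stood at 3.76, 3.30 and 3.28 FPKM in the Ad-Dyrk1b livers and at 1.14, 1.91 and 1.25 FPKM in the Ad-EGFP livers. The gap between the groups was wider than the range within either. Means were 3.45 ± 0.272 and 1.43 ± 0.416 FPKM (SD, n = 3 each). In the edgeR fit on scaled counts the rise was 2.81-fold, or 1.49 ± 0.19 on the log2 scale (adjusted p = 0.000458). The call held without any 1 library (edgeR adjusted p = 0.000163 to 0.00380) and under all 8 other settings.

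The genes of the secreted hormones were not called. Fgf21 (chromosome 7, 45613886 to 45615490), the fasting and stress hormone of the liver, stood at 8.59, 8.61 and 8.82 FPKM in the Ad-Dyrk1b livers and at 6.33, 8.05 and 8.92 FPKM in the Ad-EGFP livers. On FPKM the Ad-Dyrk1b libraries were nearly equal and lay inside the control range. On CPM, the scale closest to the test, Ad-Dyrk1b replicates 2 and 3 (8.77 and 8.72 CPM) lay above the highest control (8.17 CPM) and replicate 1 did not. Its log2 fold change was 0.25 ± 0.18 (edgeR adjusted p = 0.386). Gdf15 (chromosome 8, 70629393 to 70632456), a stress cytokine that acts on appetite, stood at 29.4, 23.0 and 19.6 FPKM in the Ad-Dyrk1b livers. In the Ad-EGFP livers it stood at 18.4, 23.4 and 17.8 FPKM. The groups overlapped, with Ad-Dyrk1b replicate 1 highest, and the log2 fold change was 0.34 ± 0.14 (edgeR adjusted p = 0.137).

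**Figure D3:**
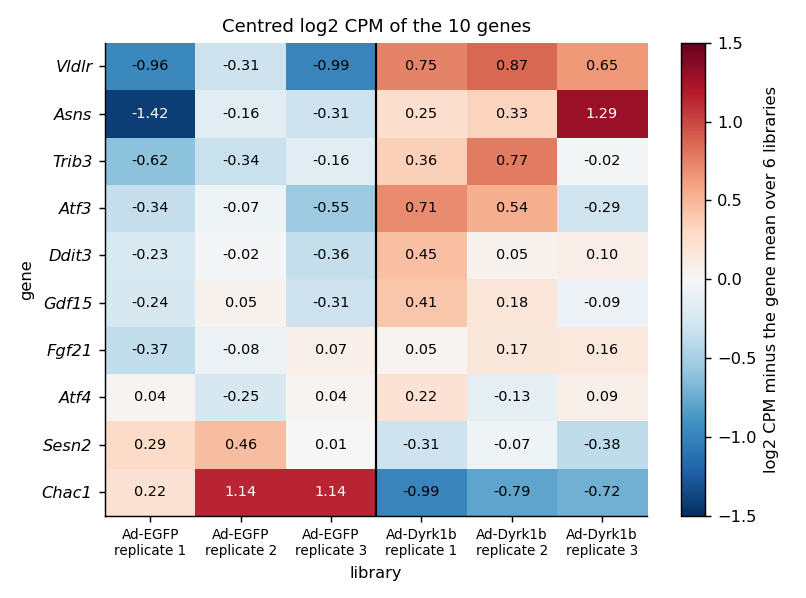
Log2 CPM of each gene minus its mean over the 6 libraries (colour and printed value; rows are genes ordered by fold change, columns are libraries). Atf3, Ddit3 and Gdf15 share their highest library, Ad-Dyrk1b replicate 1, while Asns peaks at 1.29 in Ad-Dyrk1b replicate 3 and Chac1 at 1.14 in Ad-EGFP replicates 2 and 3.

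Within groups the 10 genes did not rank the libraries alike. Ad-Dyrk1b replicate 1 was the highest of all libraries for Atf4, Atf3, Ddit3 and Gdf15 and the lowest for Chac1. On centred log2 CPM, Atf3 went from 0.71 in that library to -0.29 in Ad-Dyrk1b replicate 3, and Gdf15 from 0.41 to -0.09. Ad-EGFP replicate 1 was the lowest library for Asns, Trib3 and Fgf21, and the lowest of the controls for Chac1. On CPM the groups did not overlap for 6 of the 10 genes (Ddit3, Trib3, Asns, Vldlr, Chac1 and Sesn2), where 33.5% of all tested genes showed this (16.8% higher and 16.7% lower). On FPKM they did not overlap for 5 of the 10 (Trib3, Asns, Vldlr, Chac1 and Sesn2), where 32.8% of all tested genes showed this (10.9% higher and 21.9% lower). At an unadjusted p under 0.05 edgeR had 8 of the 10 genes, all but Atf4 and Fgf21, beside 28.5% of all tested genes. DESeq2 called 6 of the 10 beside 14.3% of all tested genes, and 4 higher beside 8.93%, adding Atf3 and Asns. The authors' deposited table has an adjusted p under 0.05 for 6 of the 10 (Vldlr, Trib3, Asns, Atf3, Chac1 and Sesn2), beside 12.3% of the tested genes. Asns had an adjusted p of 0.00540 and Atf3 of 0.0367 in the authors' deposited table.

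Upstream of ATF4, 1 of 18 genes of the eIF2 kinases and of eIF2alpha control rose, beside 7.36% of all tested genes. The list median log2 fold change was 0.03. The one that rose was Dnajc3, an inhibitor of eIF2 kinases that is itself induced by ER stress, by 0.42 ± 0.11 (edgeR adjusted p = 0.0219). Leaving out replicate 1 or 2 of the Ad-Dyrk1b livers, or replicate 1 or 3 of the controls, ended that call (highest edgeR adjusted p = 0.0983). Among the bZIP partners and regulators of ATF4 and CHOP, 1 of 12 fell, beside 4.81% of all tested genes, with a median of 0.03. Btrc, a subunit of the ubiquitin ligase that targets ATF4, fell by 0.45 ± 0.13, and of the 6 fits with 1 library left out, the one without control replicate 2 still called it (edgeR adjusted p = 0.0441 to 0.131).

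In each of the 3 lists of ATF4 targets of amino acid supply 1 gene was called higher, where 7.36% of all tested genes were. Of 14 genes of amino acid synthesis and one-carbon metabolism 1 rose, with a median of 0.15. Psph, the last enzyme of serine synthesis, stood at 19.7, 18.5 and 16.1 FPKM in the Ad-Dyrk1b livers and 11.2, 12.95 and 12.8 FPKM in the Ad-EGFP livers, and rose by 0.64 ± 0.12 on the log2 scale (edgeR adjusted p = 0.00415, at most 0.0226 without any 1 library). Of 9 tested amino acid transporter genes 1 rose, with a median of 0.26. Slc1a4, a neutral amino acid transporter, rose by 0.99 ± 0.22 (edgeR adjusted p = 0.0253), and leaving out replicate 1 or 2 of the Ad-Dyrk1b livers or control replicate 3 ended the call (range 0.000606 to 0.0851). Of 12 tRNA synthetase genes 1 rose, with a median of 0.04. That was Iars, by 0.36 ± 0.10 (edgeR adjusted p = 0.0390), and of the 6 fits with 1 library left out, the one without control replicate 2 still called it (range 0.0325 to 0.151).

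Other stress effectors that ATF4 or CHOP can induce were mixed, with 1 of 16 higher and 3 lower and a median of -0.13. Of all tested genes, 7.36% were called higher and 4.81% lower. Ero1a, an oxidase of disulfide formation, rose by 0.73 ± 0.20 (edgeR adjusted p = 0.0444). Without Ad-Dyrk1b replicate 3 its log2 fold change was 0.45, and leaving out any of the 3 controls ended the call (highest edgeR adjusted p = 0.145), which was made under 3 of 8 other settings. Herpud1, an ER-associated degradation gene, fell by 0.71 ± 0.16 (edgeR adjusted p = 0.0177), and leaving out control replicate 2 or 3 ended the call (highest 0.0606). Bbc3, which encodes the death protein PUMA, fell by 0.84 ± 0.23 (edgeR adjusted p = 0.0325), and leaving out replicate 1 or 3 of the Ad-Dyrk1b livers, or control replicate 2 or 3, ended the call (highest 0.106). Gadd45b fell by 0.48 ± 0.13 (edgeR adjusted p = 0.0361), and of the 6 fits with 1 library left out, the one without Ad-Dyrk1b replicate 1 still called it (highest 0.116).

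**Figure D4:**
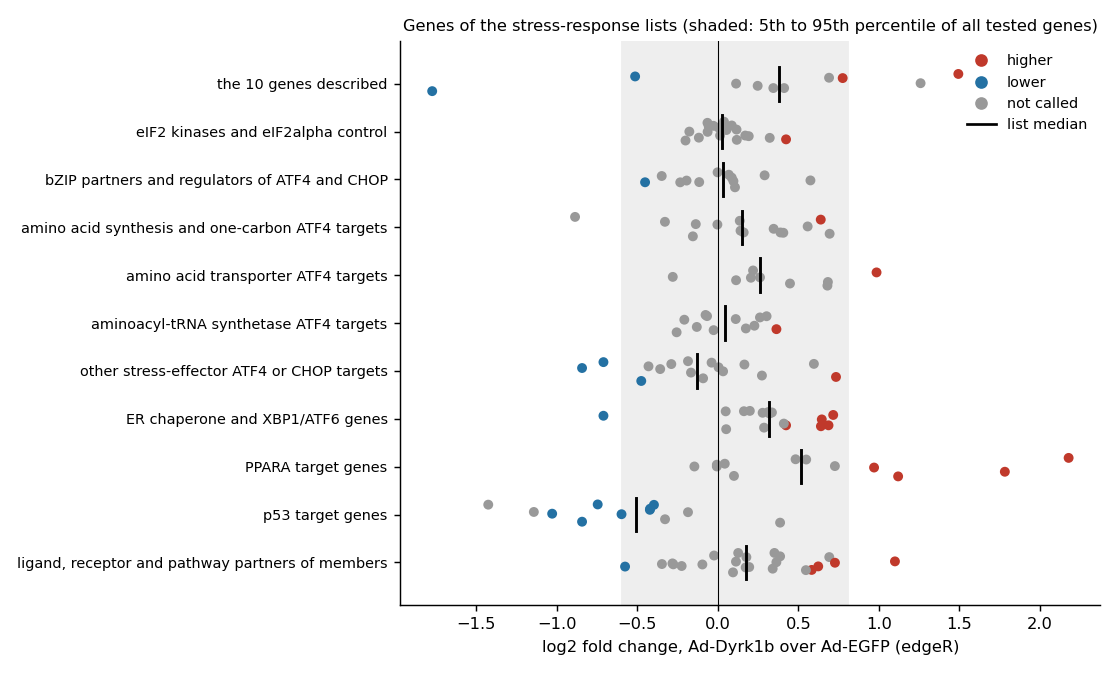
Log2 fold changes (x axis) of the tested genes of each list (1 dot per gene, coloured by call, vertical spread only for display), with the list median as a black line and the 5th to 95th percentile of all tested genes shaded (-0.60 to 0.81). The p53 target list lies mostly below 0 and the PPARA and ER chaperone lists mostly above it, while the 10 genes reach past the shaded range on both sides.

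The ER chaperone, PPARA and p53 programmes have targets among these genes, and their genes are given for comparison. Genes of ER chaperones and of the XBP1 and ATF6 arms of the unfolded protein response were higher in 5 of 16 and lower in 1. Their median was 0.32, and of all tested genes 7.36% were higher and 4.81% lower. Hyou1, a chaperone, rose by 0.69 ± 0.13 and Dnajb9, a co-chaperone, by 0.64 ± 0.13 (edgeR adjusted p = 0.00449 and 0.00660), and both held without any 1 library. Manf, a secreted ER protein, rose by 0.65 ± 0.16, and leaving out Ad-Dyrk1b replicate 1 or control replicate 1 or 2 ended the call (highest edgeR adjusted p = 0.0791). Its exons share bases with Dcaf1 on the opposite strand and with Rbm15b, so its counts are uncertain. Dnajc3 and Herpud1 are also in this list, and Herpud1 is the member that fell. The number of higher genes was 2 without Ad-Dyrk1b replicate 1 or control replicate 1 and 3 without Ad-Dyrk1b replicate 2. Over the whole table these 3 fits called 707, 615 and 612 genes higher, of 13327, 13366 and 13363 tested. The fit on all 6 libraries called 972 of 13201.

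Targets of PPARA, the fatty acid receptor that is also known to induce Fgf21 and Vldlr, were higher in 4 of 12. Their median was 0.52, and 7.36% of all tested genes were higher. The fatty acid hydroxylase gene Cyp4a10 had means of 418 ± 47.0 FPKM in the Ad-Dyrk1b and 98.5 ± 14.1 FPKM in the Ad-EGFP livers (SD, n = 3 each). On scaled counts it rose by 2.18 ± 0.15 on the log2 scale (edgeR adjusted p = 3.02e-06). Vnn1 rose by 1.78 ± 0.17 and Cyp4a14 by 1.12 ± 0.13, and the calls for these 3 genes held without any 1 library. Acot1, a thioesterase gene, rose by 0.97 ± 0.25, and of the 6 fits with 1 library left out, the one without Ad-Dyrk1b replicate 3 still called it (edgeR adjusted p = 0.000232 to 0.141). Cyp4a genes and Acot1 have near-identical relatives, so values of single copies are uncertain.

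Targets of p53, which is also known to induce Sesn2, Gdf15 and Atf3, were lower in 7 of 12, with a median of -0.51. Of all tested genes, 4.81% were called lower. Phlda3 fell by 1.03 ± 0.14, Cdkn1a (the cell cycle inhibitor p21) by 0.75 ± 0.11 and Zmat3 by 0.60 ± 0.13 (edgeR adjusted p = 0.000696, 0.000931 and 0.0105), and these held without any 1 library. Cdkn1a stood at 79.0, 78.3 and 73.7 FPKM in the Ad-Dyrk1b livers and 123, 142 and 150 FPKM in the Ad-EGFP livers. Aen fell by 0.42 ± 0.09, and leaving out Ad-Dyrk1b replicate 2 ended the call (edgeR adjusted p = 0.0535). Mdm2 fell by 0.40 ± 0.10, and of the 6 fits with 1 library left out, the one without control replicate 3 still called it (highest edgeR adjusted p = 0.101). Bbc3, given above, is also a p53 target. The count was 4 without Ad-Dyrk1b replicate 3 or control replicate 2. Over the whole table these fits called 396 and 461 genes lower, of 13335 and 13374 tested. The fit on all 6 libraries called 635 of 13201. Whether these programmes have a part in the values of Sesn2, Vldlr or the other 8 genes was not tested.

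Among ligands, receptors and pathway partners of the 10 genes, 4 of 23 tested rose and 1 fell, with a median of 0.18. Of all tested genes, 7.36% were called higher and 4.81% lower. Lpl, the lipase that works with VLDLR on triglyceride-rich lipoproteins, stood at 184, 145 and 154 FPKM in the Ad-Dyrk1b livers and 73.9, 72.5 and 92.4 FPKM in the Ad-EGFP livers. Its log2 fold change was 1.10 ± 0.13 (edgeR adjusted p = 0.000165), and the call held without any 1 library. Glul, glutamine synthetase, which makes the amide donor that ASNS uses, rose by 0.73 ± 0.11 (edgeR adjusted p = 0.00131), although its exons share bases with Teddm2 on the opposite strand. Fgfr4, the main FGF receptor of hepatocytes, rose by 0.62 ± 0.13 (edgeR adjusted p = 0.00993, at most 0.0379 without any 1 library). Fgfr2 rose by 0.58 ± 0.15, and leaving out replicate 1 or 2 of the Ad-Dyrk1b livers, or control replicate 1 or 3, ended the call (highest edgeR adjusted p = 0.0997). Fgfr2 shares exon bases with Ctbp2 in the annotation. Sesn3, given above, is the partner that fell. Klb, the co-receptor for FGF21, differed by 0.36 ± 0.15 on the log2 scale without a call (edgeR adjusted p = 0.140), and Gfral, the receptor of GDF15, which acts in the hindbrain, had no count in any library.

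The libraries are of whole liver, so a change in the share of a cell type and a change of RNA per cell cannot be told apart. Markers of other cell types differed between libraries, and every marker had counts in all 6 libraries. Summed T and NK cell markers ranged from 36.4 to 52.97 CPM in Ad-Dyrk1b and from 23.6 to 34.0 CPM in Ad-EGFP libraries, and 7 of 9 tested had log2 fold changes above 0. Gzmb had the highest counts of this list in every library (295 to 361 against 133 to 147) and weighs most in the sum. On CPM the groups did not overlap for 3 of the 9 tested markers, beside 33.5% of all tested genes. Cd3d, Trbc1 and Klrb1c differed by 0.05, -0.06 and -0.12 on the log2 scale. Summed bile duct markers ranged from 318 to 434 CPM against 201 to 248 CPM, with 5 of 6 above 0. Spp1 alone made up most of this sum, at 5372 to 7889 counts against 3359 to 4074 counts. No other duct marker had more than 176 counts in any library, and Epcam differed by -0.14 on the log2 scale. Erythroid markers ranged from 886 to 3694 CPM against 528 to 875 CPM, with 6 of 6 above 0 and the highest value in Ad-Dyrk1b replicate 3, the library in which Asns was highest and Atf3 lay at the control level. Ranges of the summed levels overlapped between the groups for macrophage markers (489 to 606 against 353 to 735 CPM), endothelial markers (177 to 261 against 126 to 200 CPM) and stellate cell markers (186 to 219 against 210 to 398 CPM). Of single markers, 3 of 8 hepatocyte, 6 of 8 macrophage, 7 of 7 endothelial and 0 of 7 stellate cell markers had log2 fold changes above 0. The sums of macrophage, T and NK cell, endothelial, bile duct and erythroid markers were lowest in Ad-EGFP replicate 1, where Asns, Trib3 and Fgf21 were also lowest. edgeR called the hepatocyte gene Cyp2e1, the macrophage and monocyte genes Cd68 and Ly6c2, the lymphocyte genes Gzmb and Trbc2 and the duct gene Spp1 higher. The calls for Cyp2e1, Gzmb and Spp1 held without any 1 library. Of the 6 fits with 1 library left out, 1 called Cd68, 0 called Ly6c2 and 2 called Trbc2 (highest edgeR adjusted p = 0.119, 0.140 and 0.103). In the lists without a call, the smallest p-values were those of Lyve1 and Clec4g (endothelial), Col3a1 and Col1a1 (stellate) and Hbb-bt and Hbb-bs (erythroid). The part of these cells in the values of the 10 genes was not tested. The calls for Vldlr and Chac1 held without Ad-EGFP replicate 1 and without Ad-Dyrk1b replicate 3. Those fits keep the marker differences among the remaining libraries, so they do not test the part of these cells either.

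Of 11286 genes with a mean of 1 FPKM or more, the 5 whose log2 CPM most resembled the mean centred level of the 10 genes over the 6 libraries were Abcg2, Oas1b, Snx20, Gdi2 and Gbp2b. Their Pearson correlations with that mean were 0.998, 0.997, 0.992, 0.992 and 0.989. These are the highest of many candidates over 6 libraries that share depth and group differences, and are a description only. Abcg2 encodes an exporter, and Oas1b and Gbp2b are interferon-inducible genes. The mean level itself was 0.19, 0.19 and 0.08 in the Ad-Dyrk1b livers, and its lowest value was -0.36 in Ad-EGFP replicate 1.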

How the data were processed

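The 6 liver libraries (mRNA, 2 groups read from the titles) were sequenced on an Illumina instrument. Per the labels' protocols, libraries were made with a NEBNext Ultra kit. Per the file headers, the deposited values are a whole-number count and an FPKM for each gene and library. The authors also deposited group means of FPKM, a log2 ratio, and for each gene a p-value with its adjustment. Per the submitters' processing notes the build was mm10 and DESeq2 was used. Aligner, counter, strand setting and annotation: not given in the sources used here. Nothing in the labels ties samples to separate mice. The p-values therefore rest on sample-to-sample spread that may be technical.

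Counts were tested with edgeR 4.0.16 (R 4.3.3) on 13201 genes left by filterByExpr (minimum count 10, total 15), using TMM scaling and robust quasi-likelihood F-tests (two-sided). The Benjamini-Hochberg adjustment covered every tested gene, and calls lie under 0.05. Positive log2 fold changes mean higher in Ad-Dyrk1b, with ± as standard error (SD for FPKM means). Centred values are log2 CPM with a prior count of 2. Alternatives were RLE scaling, no filter, DESeq2 1.42.0, limma 3.58.1 (voom, and trend on log2(FPKM + 1) or log2(FPKM + 0.1) with and without a filter at a mean of 0.1 FPKM), a replicate block, and leaving out each library.

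The 10 genes and all lists were chosen with earlier results of these data known. All 10 genes and Dyrk1b are named. From each list every called gene is named, or the 5 with the smallest p where more were called, or the 2 with the smallest p where edgeR called none, along with the 5 genes most like the members' mean. Further genes (Sesn1, Klb, Gfral, Mars1, and Alb and Ttr) were named after their values were seen. Coordinates are from GENCODE M21 (mm10), which held 22219 of the identifiers, and promoter windows from RefSeq (GRCm38.p6).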

Additional observations from a re-analysis of the deposited data

How the results depend on the processing

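Of 140 refits of the 10 log2 fold changes (14 alternatives each), 123 kept their direction and their side of the threshold, 12 lost the call, 5 gained one, and 0 changed sign. Chac1 and Vldlr kept their calls in all 14. The number of the 10 genes called higher was 4 with DESeq2 and with the replicate block, and 1 with limma-trend on log2(FPKM + 1), with or without the filter, and on log2(FPKM + 0.1). The number called lower was 1 with limma-trend on log2(FPKM + 1) without the filter. Leaving out 1 library gave 1 to 3 genes higher and 1 to 2 lower. Over the whole table, the main fit called 972 genes higher and 635 lower of 13201 tested, and DESeq2 called 1179 and 715 of 13201. Of 14054 genes tested with the filter, limma-trend called 552 higher on log2(FPKM + 1) and 548 on log2(FPKM + 0.1). Without the filter it called 366 higher and 394 lower on log2(FPKM + 1), of 17194 tested. Leaving out 1 library gave 612 to 800 genes higher and 294 to 461 lower, of 13327 to 13374 tested. Fewer samples were fitted in those cases, and for the other changes the cause was not tested. With the replicate number as a block, 1109 genes were higher and 774 lower, of 13201 tested. Deviations from the group means correlated at 0.02, 0.17 and 0.11 for libraries of the same number, and not every library correlated best with its own number, so the numbers were not taken as pairs. The block added calls for Asns (edgeR adjusted p = 0.0155) and Atf3 (edgeR adjusted p = 0.0304) and changed no other call among the 10 genes. Chac1, with 36 to 155 counts per library, and Asns, with 31 to 204, are the most limited by depth. The refits of genes named from the other lists were added after the data were seen.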
